A study of Homo sapiens with 6 samples.

Results

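Accessible chromatin was examined around 8 genes of antibody gene recombination and mutation in GM12878, a human B lymphoblastoid cell line transformed with Epstein-Barr virus. The genes were chosen by name: RAG1, RAG2 and DNTT for V(D)J recombination, LIG4 and XRCC4 for end joining, and UNG, POLH and TP53BP1 for class switching and hypermutation. Every peak that overlapped a gene body in hg19, or the 10 kb on either side of it, was taken. This gave 23 of the 56447 regions obtained by merging the peaks of 6 libraries, in 730.4 kb of windows. All 6 libraries were bulk ATAC-seq, in which the Tn5 transposase cuts open DNA, made from cells fixed in 1% PFA, with crosslinks reversed at 65 degrees in the presence of proteinase K. The labels give a 30 min transposition and an EDTA quench for all 6, but the study's methods name that quench only for the protocol without purification, so the protocols may differ in more than the reversal. The protocols are named for how crosslinks were reversed: an old buffer that contains SDS, a new buffer without SDS followed by DNA purification, and the new buffer with the PCR mix added directly and no purification, with 2 replicates of each. The question of the design was whether the new buffer, developed so that PCR can follow directly, gives libraries like those of the old one. No antibody was used, and nothing in the sources used here says that the replicates came from separate cultures, so their spread may be technical.

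V(D)J recombination assembles antibody genes in developing lymphocytes. The RAG1 and RAG2 proteins cut DNA at recombination signals, DNTT (terminal transferase) adds untemplated nucleotides to the ends, and XRCC4 with DNA ligase IV, the product of LIG4, seals the breaks by non-homologous end joining, a pathway that every cell type uses. Mature B cells later mutate and switch these genes: UNG removes uracil from DNA, POLH (DNA polymerase eta) copies across the lesion, and TP53BP1 protects broken ends during class switching.

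The canonical promoters of the V(D)J genes were called least often. No library had a peak within 1 kb of the canonical start (the start of the transcript that Ensembl names as representative) of RAG1, RAG2 or DNTT. At the canonical starts of LIG4, XRCC4, UNG and POLH all 6 libraries had one, and at that of TP53BP1 5 did. So 4 of the 8 canonical starts were called in all 6 libraries, beside 43.4% of 19894 protein-coding genes, and 3 of 8 in none, beside 41.9%. When the start of any coding transcript was allowed, 6 of the 8 genes had a promoter region called in all 6 libraries, beside 45.5% of 19833 genes. RAG1 was then among them, through a region at an upstream start that is also the promoter of another gene. The summit of that region lay 57736 bp upstream of the canonical RAG1 start.

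The stretches just upstream of the canonical starts also differed in sequence. They are shown because the absence or presence of CpG is visible in them; each covers up to 150 bases before the start without annotated untranslated sequence, read 5′ to 3′ on the strand of the gene from hg19, with every CpG in capitals. LIG4 had no such stretch of sufficient length, and RAG1 is not shown either. The positions are chr11:36619787-36619936 (minus strand) for RAG2, chr10:98064041-98064165 (plus) for DNTT, chr12:109535252-109535401 (plus) for UNG, chr6:43543776-43543921 (plus) for POLH, chr15:43785355-43785504 (minus) for TP53BP1 and chr5:82373216-82373316 (plus) for XRCC4.
RAG2: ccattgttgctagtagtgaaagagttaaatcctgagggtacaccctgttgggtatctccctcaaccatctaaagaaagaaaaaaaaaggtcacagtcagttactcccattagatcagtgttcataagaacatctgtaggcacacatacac
DNTT: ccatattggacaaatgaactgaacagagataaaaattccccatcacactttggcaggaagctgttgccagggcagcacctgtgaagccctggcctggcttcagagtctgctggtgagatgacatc
UNG: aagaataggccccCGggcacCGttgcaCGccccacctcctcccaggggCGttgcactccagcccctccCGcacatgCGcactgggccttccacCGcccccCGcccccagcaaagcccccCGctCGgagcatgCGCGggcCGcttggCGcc
POLH: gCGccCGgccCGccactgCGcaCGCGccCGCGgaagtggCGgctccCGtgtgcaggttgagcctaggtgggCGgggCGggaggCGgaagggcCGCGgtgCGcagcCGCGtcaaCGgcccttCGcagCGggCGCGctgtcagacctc
TP53BP1: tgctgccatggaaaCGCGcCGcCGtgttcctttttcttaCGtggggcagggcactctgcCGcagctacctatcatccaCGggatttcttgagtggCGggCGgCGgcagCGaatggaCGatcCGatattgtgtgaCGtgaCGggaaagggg
XRCC4: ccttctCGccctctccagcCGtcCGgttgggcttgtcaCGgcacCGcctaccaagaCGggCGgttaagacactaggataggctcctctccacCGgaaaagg

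The RAG2 and DNTT stretches held 0 CpG each. The others held 14 in 150 bases (UNG), 23 in 146 (POLH), 15 in 150 (TP53BP1) and 8 in 101 (XRCC4). Over 250 bp on each side of the canonical start, the observed CpG number over that expected from the base composition was 0.04 for RAG1, 0.10 for RAG2 and 0.35 for DNTT. It was 0.60 for LIG4, 0.70 for UNG, 0.79 for XRCC4, 0.88 for TP53BP1 and 1.03 for POLH. The 3 uncalled starts were thus the 3 poorest in CpG, and RAG1 lay at the 0.7th percentile of all genes. Across genes the median was 0.86 at the 8638 canonical starts called in all 6 libraries and 0.39 at the 8326 called in none. Of starts with a value under 0.5, 5.5% were called in all 6 libraries, against 57.8% of the others. This is a description across genes, which share libraries and base composition, and what part CpG content had in the calls was not tested.

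**Figure D1:**
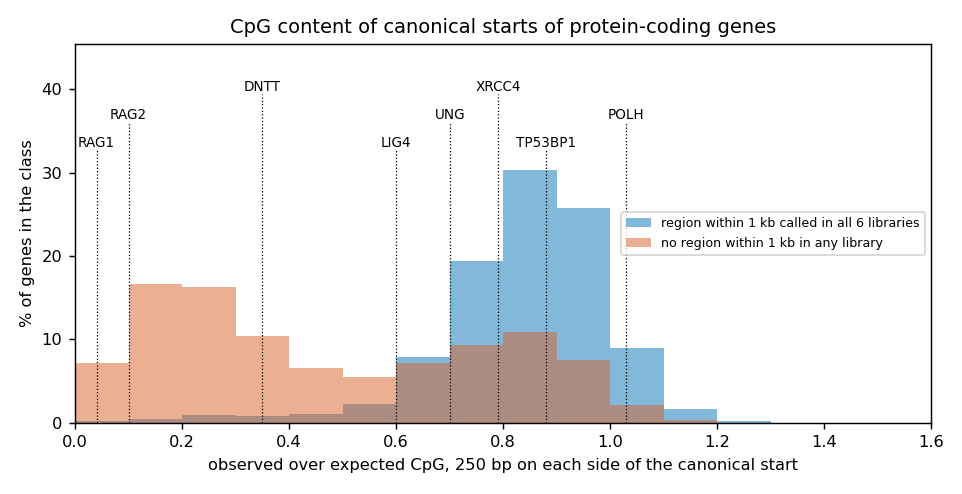
Distribution of observed over expected CpG (x axis, 250 bp on each side of the canonical start) as % of genes in the class (y axis), for genes with a region within 1 kb called in all 6 libraries (blue) and genes with none in any library (orange). Dotted lines mark the members; RAG1, RAG2 and DNTT lie at 0.04 to 0.35, and the other 5 genes at 0.60 to 1.03.

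Peaks differ in strength, so each promoter was also ranked: the percentile of its strongest peak by −log10 q within a library, with 0 where no peak was called. In the order old buffer 1 and 2, purified new buffer 1 and 2 and unpurified new buffer 1 and 2, the mean rank of the 3 V(D)J genes was 38.9, 28.1, 36.6, 28.5, 29.0 and 30.7. That of UNG, POLH and TP53BP1 was 68.4, 74.1, 70.7, 63.5, 73.2 and 76.2. The mean of the class switch genes was higher in all 6 libraries. Each library measures the same 6 genes, and DNTT stood at 0 in every one, so agreement between libraries does not extend to other genes. No value for other sets of 3 genes was computed. Single genes did not all follow the order of the means: RAG1, at 84.4 to 92.0, ranked above each class switch gene in every library. The difference was 39.0 ± 7.05 percentile points (SD, n = 6 libraries), from 29.5 to 46.0, and the SD covers the spread between libraries of 1 cell line, not between genes. LIG4 and XRCC4 stood above both, at 94.5, 92.2, 96.5, 89.1, 93.7 and 96.2. Counted with the V(D)J genes, they brought the difference down to 14.3 ± 5.61. With canonical starts alone, an alternative chosen after seeing the data, it was 57.5 ± 7.37. All 3 V(D)J genes count as 0 there, so this value is only the mean rank of the class switch genes.

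The 3 V(D)J genes were unlike each other. RAG1 ranked 84.8, 84.4, 87.2, 85.5, 87.1 and 92.0 in the order above, RAG2 31.9, 0, 22.7, 0, 0 and 0, and DNTT 0 in every library. The group value therefore rests mainly on 1 region, at the upstream RAG1 start. Other ranks rest on shared promoters too, which the assay cannot assign to 1 gene. They were TP53BP1 with MAP1A, POLH with XPO5, XRCC4 with TMEM167A, RAG2 with IFTAP and the upstream LIG4 region with ABHD13. The TP53BP1 region lay 17755 bp upstream of the canonical start. At the canonical start itself the mean rank was 44.9 in the 5 libraries with a peak. UNG had a mean rank of 65.1, POLH 69.9 and TP53BP1 78.0, with library ranges of 44.7 to 73.9, 56.6 to 80.8 and 70.9 to 81.9 that overlapped. LIG4 had a mean of 88.6 and a range of 78.8 to 94.1, and XRCC4 98.8 with 98.1 to 99.4. The median over genes with a promoter called in all 6 libraries was 78.7. The means of UNG, POLH and TP53BP1 lay below it, although TP53BP1 was above it in 4 of 6 libraries. Those of LIG4 and XRCC4 lay above it. Of the V(D)J genes, RAG1 (86.8) lay above it and RAG2 (9.1) and DNTT (0) below. By fold enrichment the order differed: the TP53BP1 and POLH regions were at the 82.1st and 65.8th percentiles of regions called in all 6 libraries, and those of LIG4 at the 9.3rd and 39.4th.

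**Figure D2:**
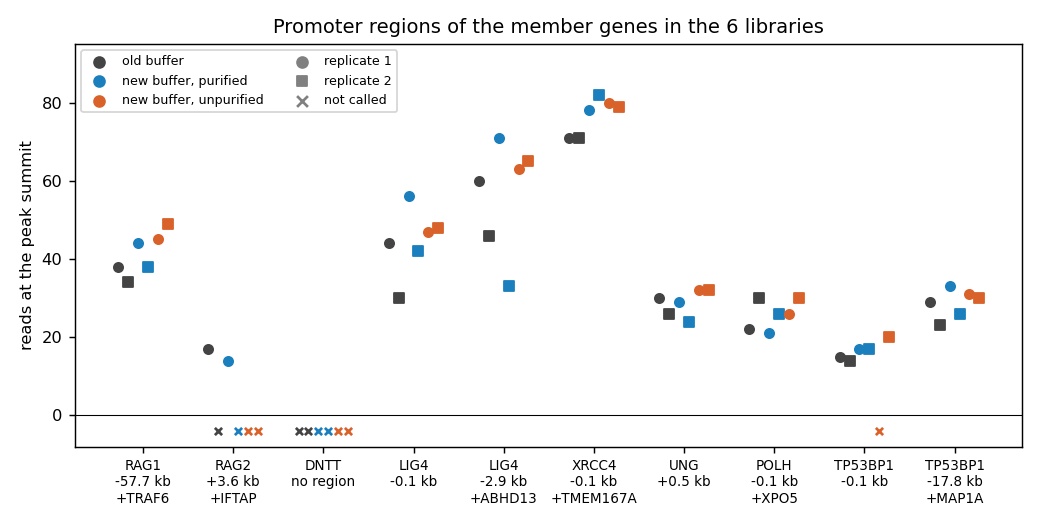
Reads at the peak summit (y axis) for each promoter region of the members (x axis, with its distance from the canonical start in kb and any gene sharing it), 1 symbol per library, coloured by protocol, with crosses below 0 for libraries without a peak. XRCC4 is highest at 71 to 82 reads, RAG2 was called in 2 libraries only and DNTT in none.

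RAG1 and RAG2 are neighbours, transcribed towards each other on chromosome 11 (RAG1 at chr11:36531922-36614706, plus strand; RAG2 at chr11:36597124-36619829, minus strand), and their windows held 8 regions in all. The strongest, chr11:36531334-36532112, had 38, 34, 44, 38, 45 and 49 reads at its summit in the 6 libraries. Its summit lay 1 bp from the start of TRAF6, a ubiquitin ligase of immune receptor signalling, so the assay cannot assign it to RAG1 or TRAF6. Its mean fold enrichment over local background was 8.36 ± 0.44 (SD, n = 6), at the 78.9th percentile of regions called in all 6 libraries.

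The other RAG1 region found in every library lay in an intron 9136 bp upstream of the canonical start. Its summit reads were 24, 14, 19, 18, 17 and 16, and its fold enrichment was 7.07 ± 1.23 (SD, n = 6). It was the only distal V(D)J region called in all 6 libraries, of 6. The local background was low, 1.69 reads on average, at the 0.4th percentile of such regions. Fold enrichment therefore placed it at the 55.9th percentile although its reads were below the median of 29.2.

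A further RAG1 intronic region, chr11:36562628-36562954, was called in all 4 new-buffer libraries, with 13, 15, 14 and 19 reads, and in neither old-buffer library. Of all regions, 0.475% had this pattern. A region in an intron of TRAF6, chr11:36521915-36522374, was called in 4 libraries with 12 to 16 reads. At such read numbers a missing peak says only that the threshold was not met.

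Around RAG2 no region was called in more than 2 libraries. The promoter region, chr11:36615872-36616471, had 17 reads in old buffer 1 and 14 in purified new buffer 1. It lay 3604 bp downstream of the canonical start, at an alternative RAG2 start shared with IFTAP. The remaining 3 were each called in 1 library, with 13 reads at chr11:36593950-36594153, 11 at chr11:36626912-36627163 and 15 at chr11:36627401-36627604. With 4 regions in 42.7 kb, the RAG2 window was at the 93.8th percentile of genes by density of regions, while none of the 4 was found in all 6 libraries.

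DNTT (chr10:98064166-98098321, plus strand) had no region in a window of 54.2 kb. Of 3533 genes with a window within 20% of that length, 16.3% had none either. The nearest region to its start, chr10:98047163-98048385, was 15806 bp away, outside the window, and was called in all 6 libraries.

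**Figure D3:**
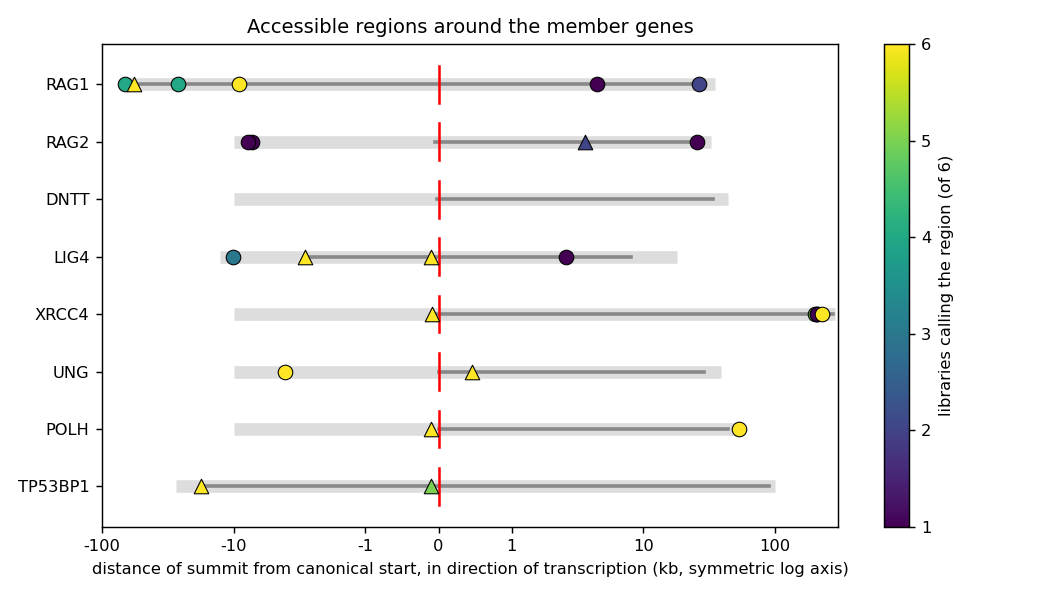
Distance of each region's summit from the canonical start in the direction of transcription (x axis, kb, symmetric log axis) for the 8 genes (y axis), coloured by the number of libraries calling it. Triangles are regions at a start of the gene, circles all others, dark lines gene bodies, pale bars the windows with 10 kb on each side, and red ticks canonical starts; RAG1, RAG2 and DNTT have no mark within 1 kb of the tick.

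XRCC4 (chr5:82373317-82649606, plus strand), the scaffold that holds DNA ligase IV, had the strongest promoter of the 8 genes. The region chr5:82372763-82373702, shared with TMEM167A, had 71, 71, 78, 82, 80 and 79 reads and a fold enrichment of 11.49 ± 0.70 (SD, n = 6), at the 98.8th percentile. The remaining 4 regions of the gene lay far inside it. The strongest of them, chr5:82602371-82603096, was 229316 bp downstream of the start and was called in all libraries with 26, 22, 19, 21, 15 and 25 reads. Elsewhere in the gene, chr5:82573866-82574238 was called in 5 libraries with 12 to 19 reads, and chr5:82583736-82583935 in 1 with 14. The region chr5:82581777-82582088 was called with 12 and 14 reads in the unpurified libraries alone, a pattern of 0.788% of all regions.

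LIG4 (chr13:108859787-108870716, minus strand) had a pair of promoter regions. That at the canonical start, chr13:108867766-108868213, had 44, 30, 56, 42, 47 and 48 reads. The one at an upstream start shared with ABHD13, chr13:108870307-108871233, had 60, 46, 71, 33, 63 and 65. These reads were above the median of 29.2, but fold enrichment was 5.06 ± 0.61 and 6.40 ± 1.07 (SD, n = 6), at the 9.3rd and 39.4th percentiles. Their local backgrounds of 7.99 and 7.88 reads were at the 94.8th and 94.4th percentiles. The intronic region chr13:108865161-108865445 was called in old buffer 1 alone with 31 reads, and chr13:108877869-108878389, in an ABHD13 intron, in 3 libraries with 14 to 25.

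UNG, POLH and TP53BP1 had 6 regions in 241.1 kb and no distal one: each region lay at a start, 4 at their own and 2 at those of other genes. The UNG region (gene at chr12:109535402-109564530, plus strand), chr12:109535188-109536293, had 30, 26, 29, 24, 32 and 32 reads. UNG makes mitochondrial and nuclear proteins from different starts. The summit lay 372 to 490 bp downstream of the canonical start in 5 libraries and 39 bp downstream in purified new buffer 2, which also had the fewest reads. A region 4092 bp upstream of the canonical start, chr12:109531161-109531504, was the promoter of ALKBH2, a DNA repair enzyme, and had 17 to 23 reads.

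The POLH region (gene at chr6:43543922-43588260, plus strand), chr6:43543385-43544106, is shared with XPO5, the exporter of microRNA precursors. It had 22, 30, 21, 26, 26 and 30 reads. The other region of the window, chr6:43596584-43598139, was the promoter of GTPBP2 and MAD2L1BP, with 24 to 36 reads. TP53BP1 (chr15:43695259-43802926, minus strand) had 29, 23, 33, 26, 31 and 30 reads at an upstream start shared with MAP1A, chr15:43802791-43803547. At its canonical start, chr15:43785236-43785632, it had 15, 14, 17, 17 and 20 in the libraries other than unpurified new buffer 1, which had no peak.

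By mean fold enrichment the promoter regions called in all 6 libraries ran from XRCC4 (11.49 ± 0.70) through TP53BP1 (8.59 ± 0.67), RAG1 (8.36 ± 0.44), POLH (7.56 ± 0.83), the upstream LIG4 start (6.40 ± 1.07) and UNG (6.19 ± 0.87) to the canonical LIG4 start (5.06 ± 0.61; SD, n = 6 each). XRCC4, at 10.75 to 12.50, did not overlap TP53BP1, at 7.79 to 9.68. Each of the other neighbours in this order overlapped over the libraries.

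Counted by group, 2 of 8 regions (25.0%) in the V(D)J windows were called in all 6 libraries, 5 of 6 (83.3%) in the class switch windows and 4 of 9 (44.4%) in the end joining windows. For all members it was 11 of 23 (47.8%), beside 35.5% of all regions. By location, 6 of 8 V(D)J regions, 6 of 9 end joining regions and 0 of 6 class switch regions were distal. The share of distal regions over the whole series was not counted, so these numbers are not read as a trait of a group. Of the regions of the series called in all 6 libraries, 8292 lay at promoters and 11772 elsewhere. Over the series 64.2% of promoter regions and 27.0% of the rest were called in all 6 libraries. Density was pooled over the windows of each group. It was 4.94 regions per 100 kb around the V(D)J genes, 2.75 around the end joining genes and 2.49 around the class switch genes. The median over single gene windows, an unlike measure, was 2.84. Single members ran from 0 for DNTT to 12.93 for LIG4. For regions called in all 6 libraries alone the pooled densities were 1.23, 1.22 and 2.07, with no value over all genes beside them. The last was the highest, but 2 of its 5 regions were promoters of other genes.

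The sequence at the summits was searched for 13 short motifs of transcription factors on both strands, in windows centred on the median summit. The motifs were CCGGAAG (ETS), CCAAT (NFY), CAGGTG (E-box), GCGCATGCG (NRF1), GGGCGG (SP), TGACTCA (AP-1), CCCNNGGGA (EBF1), GGGACTTTC (NF-kB), AAGATGGC (YY1), TTTCGCGC (E2F), TGTGGTT (RUNX), AGGGGGCGC (CTCF) and GAGGAAGT (PU.1), and none contains another. The windows below are those of the UNG promoter, of the XRCC4 intronic region called in all libraries and of the regions split by protocol. They are on the plus strand of hg19, with motif matches in capitals, at chr12:109535755-109535922 for UNG (trimmed of untranslated sequence), chr11:36562722-36562922 for the RAG1 intron, and chr5:82602582-82602782 and chr5:82581851-82582051 for the XRCC4 introns.
UNG promoter: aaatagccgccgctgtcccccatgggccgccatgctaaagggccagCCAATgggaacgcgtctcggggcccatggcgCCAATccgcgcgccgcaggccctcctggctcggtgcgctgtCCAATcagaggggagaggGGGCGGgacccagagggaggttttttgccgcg
RAG1 intron: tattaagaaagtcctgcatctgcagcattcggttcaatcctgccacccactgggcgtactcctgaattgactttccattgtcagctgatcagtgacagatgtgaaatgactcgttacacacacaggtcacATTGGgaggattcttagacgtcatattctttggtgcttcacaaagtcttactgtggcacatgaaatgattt
XRCC4 intron, 6 libraries: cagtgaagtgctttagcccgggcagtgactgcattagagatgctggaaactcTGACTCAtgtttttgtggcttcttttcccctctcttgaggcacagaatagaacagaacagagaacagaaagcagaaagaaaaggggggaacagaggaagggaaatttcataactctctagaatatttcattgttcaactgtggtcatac
XRCC4 intron, unpurified: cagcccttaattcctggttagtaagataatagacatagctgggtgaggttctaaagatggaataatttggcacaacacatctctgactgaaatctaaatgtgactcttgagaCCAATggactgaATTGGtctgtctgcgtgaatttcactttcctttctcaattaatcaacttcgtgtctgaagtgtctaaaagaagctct

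The UNG window held the NFY motif CCAAT 3 times and the SP motif GGGCGG. Over promoter windows called in all 6 libraries, 34.2% held CCAAT and 69.5% GGGCGG. The XRCC4 intron called in all libraries held the AP-1 motif TGACTCA, which was in 16.9% of other windows called in all 6 libraries and 1.85% of promoter windows. The regions split by protocol held CCAAT, once in RAG1 and 2 times in XRCC4, as did 24.3% of other windows. A match is a description of letters and not evidence of binding.

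Strength did not differ detectably between the protocols at any of the 11 member regions called in all libraries. The other member regions, including those split by protocol, were not compared. Fold enrichment at the 11 member regions called in all libraries was compared on the log2 scale with limma, fitted over all 20064 such regions with Benjamini-Hochberg adjustment. Between purified new and old buffer, 0.00498% of regions (1, lower) passed an adjusted p of 0.05, and 1227 had an unadjusted p under 0.05. Between unpurified new and old buffer 0% passed with 1177 unadjusted, and between unpurified and purified 0% with 863. None of the 11 member regions passed or had an unadjusted p under 0.05 in any of the 3 comparisons. The largest difference in the first was at the canonical LIG4 start, 0.35 (SE 0.20, limma adjusted p = 0.862). The XRCC4 promoter differed by 0.17 (SE 0.11). Over the 11 regions the 95% confidence intervals reached from −0.68 to 0.76, −0.69 to 0.57 and −0.72 to 0.73, so differences up to those sizes are not excluded by these data.

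**Figure D4:**
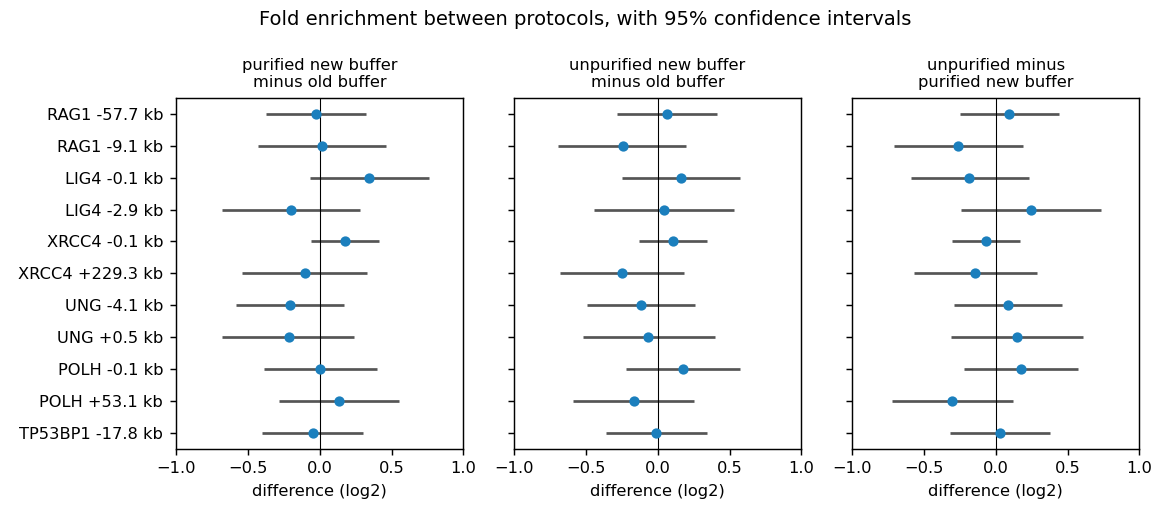
Difference in log2 fold enrichment (x axis) between protocols for the 11 member regions called in all 6 libraries (y axis, named by gene and distance from its canonical start). Points are limma estimates and lines 95% confidence intervals; every interval includes 0.

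Other genes of the same pathways had mostly open promoters, beside 45.5% of all protein-coding genes with a promoter region in all 6 libraries. Of 11 others of end joining and V(D)J recombination, 9 had a promoter region in all 6 libraries, from XRCC5 (mean rank 72.2), a subunit of the Ku end-binding complex, to HMGB2 (99.4), a DNA-bending protein. The exceptions were PAXX, an end joining factor, with 5 libraries and a mean rank of 20.9, and POLL, a repair polymerase, with 2 and 9.2. Of 23 others of class switching and hypermutation, 21 had one, and the weakest of these was RPA1 (39.4), a single-strand binding protein. The exceptions, each in 5 libraries, were SHLD1 (21.1), of the shieldin complex, and RNF8 (15.2), a ubiquitin ligase of the break response.

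Markers of the cell type gave a mixed picture, beside the 45.5% of all protein-coding genes with a promoter region in all 6 libraries. Of 8 B cell genes, 2 (MS4A1 and CD40) had a promoter region in all 6 libraries, 5 in 1 to 5 and 1 in none. Of 6 T cell genes 1 did, CD8A, away from its canonical start, and 5 had none. None of the 6 erythroid and myeloid genes had a region in any library. Of 5 genes of early B progenitors, the stage at which RAG1, RAG2 and DNTT are known to act, 4 had none in any library and KIT had one in 4. Peak lists held 30136 to 38023 peaks, with a median of 20 to 22 reads at the summit, and 15 to 19 of them lay in the member windows. Peaks record open DNA and not transcription, and a gene without a peak may have access below the calling threshold.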

How the data were processed

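The data were the peak lists of 6 libraries of GM12878 cells. Groups came from the labels; that the new-buffer libraries without the remark on purification were purified is taken from the study's own text. Per the submitters' processing notes, Bowtie2 2.1.0, Picard 1.79, MACS2 and DESeq were used with hg19; for MACS2 a version is not given in the sources used here. In the study's account, reads were merged per condition before calling, but 1 list per library was deposited. The deposited lists give a score, a fold enrichment and, for the summit, p and q as −log10 values, all computed by the authors. Fold enrichment is the ratio of summit reads to local background, each with 1 added.

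Peaks were merged into regions, and a library called a region in which at least 1 bp of its peaks lay. Promoters were 1 kb on each side of the coding starts of GENCODE version 44, in hg19 coordinates. Reads and background at each summit were solved from fold enrichment and p, within a tolerance of 0.001 for 100% of peaks, and cover counting error only; total read depth is unknown, and the lowest background, 1.51 to 1.86 reads, is a relative measure of it. log2 fold enrichment was compared with limma 3.58.1 (R 4.3.3) with a variance trend. Python 3.11.15, pandas 2.3.3 and pysam 0.24.0 were used, and the scripts were tested on simulated data.

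All members, their promoters, the strongest other region of each, regions of 1 protocol alone, and the weakest and strongest other pathway genes were named by rule; some items that the rule selects are not reported here. The members and lists were chosen with earlier results of these data known. Alternatives covered the peak threshold, the number of peaks, overlap, promoter width, choice of start, scaling, the variance trend, replicate number and leaving out each library.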

Additional observations from a re-analysis of the deposited data

How the results depend on the processing

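Of the main results under their alternatives, 60 values stayed close to the reported one and 12 moved; of those split by gene group, 81 stayed close and 2 moved. None reversed. The rank difference between class switch and V(D)J genes was 14.3 with LIG4 and XRCC4 as V(D)J genes. It was 57.5 with canonical starts only, where every V(D)J gene counts as 0. With gene bodies alone, 3 class switch regions were called in all libraries, and with canonical starts only, 0 V(D)J promoters. From summit reads over the lowest background, 4 regions differed between purified new and old buffer and 4 between unpurified new and old buffer; this scaling shifted the median log2 of unpurified against purified to −0.12. Without the variance trend, 0 differed between purified new and old buffer. Leaving out 1 library gave 0 to 1 regions for purified against old buffer (0 without either old-buffer or either purified library) and 0 to 2 for unpurified against old buffer (2 without purified replicate 1, 1 without unpurified replicate 2). No member region that was tested passed under any of these settings.

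With the replicate number as a replicate block, 1 region differed for purified against old buffer, 2 for unpurified against old buffer and 0 for unpurified against purified, and the rank difference was 39.0. Same-numbered libraries did not deviate together, with correlations of −0.001 to 0.015, so the numbers were not taken to pair them. With 2 libraries per protocol and about 20 reads at a typical summit, differences between protocols may have been missed.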
